A study of Mus musculus with 25 samples.

Results

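Basement membranes are thin sheets of extracellular matrix that underlie epithelia, and the 10 genes described here code for their core parts. They are Lama1, Lama5, Lamb1 and Lamc1 (laminin chains), Col4a1 and Col4a2 (type IV collagen chains), Nid1 and Nid2 (nidogens), Hspg2 (perlecan) and Sparc (a collagen-binding matrix protein). They were chosen by gene symbol, and all 10 were found among the 35731 genes of the mESC RNA table and the 24062 genes of the embryo RNA table. All 10 also passed the filter on low counts in both tables, where 19532 and 14351 genes were tested.

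A laminin is a trimer of an alpha, a beta and a gamma chain, and it self-assembles at the cell surface where integrins and dystroglycan bind it. Type IV collagen forms another network, built mainly from trimers of the Col4a1 and Col4a2 products, and nidogens and perlecan bridge both networks. In the early mouse embryo the first basement membrane lies beneath the primitive endoderm, and cells of the parietal endoderm secrete Reichert's membrane, which is very rich in laminin and type IV collagen. DOT1L is the methyltransferase that places methyl groups on lysine 79 of histone H3, a mark of transcribed gene bodies.

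The mESC samples were v6.5 mouse embryonic stem cells (an ES line), either WT or Dot1L KO, with no further treatment. RNA was sequenced from 3 WT and 2 KO samples, and peak lists for H3K79me2 and H3K79me3 came from 2 WT and 2 KO ChIP libraries per mark. The embryo samples were wild-type 8-cell pools of 30 to 35 embryos from a B6D2F1 x Cast/EiJ cross, collected 56 hours after fertilization. Of these, 2 pools had received DMSO and 2 had received SGC0946, a small-molecule inhibitor of DOT1L whose dose and time of addition are not given in the labels. The labels do not give the deletion in the KO line, whether its samples came from 1 clone, or whether replicates were separate cultures, so p-values measure the spread between these samples, which may be technical. In bulk samples, fewer cells of a type and less RNA per cell cannot be told apart.

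Library totals ran from 26860527 to 33755064 counts in mESCs and from 24950199 to 32479590 in embryos. Dot1l counts were 2878, 3151 and 2849 in WT and 2319 and 2201 in KO libraries, which is -0.39 on the log2 scale (SE 0.06, edgeR adjusted p 1.61e-04). Counts over the whole gene do not show whether the deleted part was read, so the loss of the mark is the firmer check. An H3K79me2 peak in both lists lay over 44.4% of tested genes in WT and over 0.0108% in KO. Over the 10 genes lay 0 KO peaks of either mark, but Lamb1 had none in WT either, so there was nothing to lose there. In embryos Dot1l had 7540 and 6786 counts with DMSO and 5806 and 7037 with SGC0946 (log2 change -0.29, edgeR adjusted p 0.582). SGC0946 inhibits the enzyme, so Dot1l RNA does not show whether it acted. The series has no ChIP libraries from embryos, so loss of the mark there was not measured. Among 734 tested X-linked genes, 60.5% were lower and 4.77% higher in KO mESCs. None of the 10 genes is X-linked.

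Promoter sequences of 7 of the 10 genes were matched in RefSeq (GRCm38.p6), each covering 250 bases before and 50 bases after the annotated start. The 4 printed here are those whose start region carried a WT peak close by: the divergent type IV collagen pair, and Lama5 and Hspg2, whose H3K79me2 began within 100 bases of the 5′ edge of the annotated body in at least 1 WT list. Capitals mark the GC box (GGGCGG or CCGCCC), the CCAAT box (CCAAT or ATTGG) and a C-rich run (CCCTCCCC or GGGGAGGG), and both strands were searched.
Col4a1: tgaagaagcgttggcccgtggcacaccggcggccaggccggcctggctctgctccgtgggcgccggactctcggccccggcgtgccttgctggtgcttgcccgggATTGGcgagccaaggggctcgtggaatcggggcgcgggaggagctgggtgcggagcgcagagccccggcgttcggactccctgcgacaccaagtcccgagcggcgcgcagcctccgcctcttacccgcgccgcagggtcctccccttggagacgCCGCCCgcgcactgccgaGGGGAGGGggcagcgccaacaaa
Col4a2: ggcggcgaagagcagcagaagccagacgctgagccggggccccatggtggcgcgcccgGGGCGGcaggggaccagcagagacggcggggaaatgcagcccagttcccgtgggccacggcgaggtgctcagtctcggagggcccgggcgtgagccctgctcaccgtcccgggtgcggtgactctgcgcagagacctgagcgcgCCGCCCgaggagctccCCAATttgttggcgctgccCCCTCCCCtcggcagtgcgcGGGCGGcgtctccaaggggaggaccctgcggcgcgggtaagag
Lama5: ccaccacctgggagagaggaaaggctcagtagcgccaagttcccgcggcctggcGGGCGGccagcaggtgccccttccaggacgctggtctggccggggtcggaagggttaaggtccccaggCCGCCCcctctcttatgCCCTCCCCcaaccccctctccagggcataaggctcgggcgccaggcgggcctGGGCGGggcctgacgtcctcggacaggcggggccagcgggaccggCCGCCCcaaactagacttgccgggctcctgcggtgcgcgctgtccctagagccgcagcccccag
Hspg2: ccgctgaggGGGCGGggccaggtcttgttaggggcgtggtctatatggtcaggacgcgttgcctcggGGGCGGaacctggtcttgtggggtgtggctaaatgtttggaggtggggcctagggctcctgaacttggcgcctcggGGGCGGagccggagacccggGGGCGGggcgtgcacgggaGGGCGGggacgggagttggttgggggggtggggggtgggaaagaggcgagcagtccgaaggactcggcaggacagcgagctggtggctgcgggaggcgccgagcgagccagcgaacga
The Col4a1 window is chr8:11312777-11313076 on the minus strand and the Col4a2 window is chr8:11312555-11312854 on the plus strand. Their annotated starts lie 21 bp apart, the windows share 78 bp, and the gene bodies share 85 bp (chr8:11312805-11312889). The shared bases hold the same GC box and C-rich run read from opposite strands, as the capitals show. The Lama5 window is chr2:180225810-180226109 on the minus strand and held 4 GC boxes. The Hspg2 window is chr4:137468553-137468852 on the plus strand and held 5 GC boxes, all in the GGGCGG orientation.

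The 4 printed windows were 74.0% (Col4a1), 73.7% (Col4a2), 72.7% (Lama5) and 70.3% (Hspg2) G or C. Their CpG counts were 37, 33, 24 and 27 in the same order. Sparc stood at the other end with 55.3% and 4 CpGs, near the medians of 52.7% and 7 CpGs over 32851 promoters. Lamb1 and Nid1 lay between, with 63.7% and 64.7%. A GC box was found in 6 of the 7 windows, all but that of Sparc, and in 35.7% of all promoters. A CCAAT box was found in the Col4a1, Col4a2, Lamb1 and Nid1 windows, and in 37.4% of all promoters. The C-rich run was found in the Lama5, Col4a1, Col4a2 and Nid1 windows, and in 10.8% of all promoters. The Col4a1 and Col4a2 runs are the same bases, and the GC box of Col4a1 is also a GC box of Col4a2, so these windows are not independent. The run TATAAA, found in core promoters, was in 0 of the 7 windows and in 13.6% of all promoters. The run AGATAA, read by GATA factors, was in 0 of the 7 and in 11.2% of all promoters. The run AACAAT, read by SOX factors, was in 0 of the 7 and in 10.7% of all promoters. A match is a run of letters and not a bound site.

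In Dot1L KO mESCs the basement membrane genes split. Lama1 and both type IV collagen genes rose, Lama5, Lamc1 and Sparc fell, and Lamb1, both nidogens and perlecan did not pass the test. Of the 10 genes, 6 were called at an edgeR adjusted p under 0.05, where 43.9% of all tested genes were called. At an unadjusted p under 0.05 the count was also 6, against 50.6% of all genes. The 3 that rose compare with 22.3% of all genes called higher, and the 3 that fell with 21.6% called lower. The median log2 change of the 10 was -0.04, against 0.00 over all tested genes. All 6 called genes had WT and KO values that did not overlap, as had 62.5% of all tested genes (31.8% higher and 30.7% lower). Values below are CPM, counts scaled to the size of each library with TMM factors, and they are not divided by transcript length, so levels are compared between samples and not between genes.

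Lama1, the alpha chain of the embryonic laminin-111 (ENSMUSG00000032796, chr17:67697127-67822645), was at 56.3, 56.3 and 58.3 CPM in WT and at 89.6 and 85.9 CPM in KO cells. Both KO libraries were well above the 3 WT libraries, which lay close together. The WT mean was 57.0 ± 1.19 CPM (SD, n = 3), and the KO mean was 87.7 ± 2.58 CPM (SD, n = 2). Lama1 rose 1.54-fold (0.62 on the log2 scale, SE 0.05, edgeR adjusted p 2.84e-07). It was the largest change among the 10 genes.

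Lama5, the alpha chain of laminin-511, which supports self-renewal of ES cells in culture (ENSMUSG00000015647, chr2:180176373-180225904), moved the other way. It was at 203, 187 and 193 CPM in WT and at 151 and 131 CPM in KO cells. Both KO values lay under every WT value. Lama5 fell by 0.46 on the log2 scale (SE 0.06, edgeR adjusted p 3.19e-05).

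Lamc1, the gamma chain that laminin-111 and laminin-511 share (ENSMUSG00000026478, chr1:153218922-153332786), was at 518, 506 and 525 CPM in WT and at 400 and 408 CPM in KO cells. Groups did not overlap, and the libraries within each group lay close together. Lamc1 fell by 0.35 on the log2 scale (SE 0.04, edgeR adjusted p 6.24e-06).

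Lamb1, the beta chain of the same trimers (ENSMUSG00000002900, chr12:31265146-31329644), was at 15.6, 22.8 and 18.7 CPM in WT and at 22.4 and 15.6 CPM in KO cells. The libraries of the groups were interleaved. The log2 change was -0.02 with the widest SE of the 10 genes, 0.15 (edgeR adjusted p 0.941). Its sign turned when WT replicate 2 (0.14) or KO replicate 2 (0.22) was left out. The alpha, beta and gamma chains of the trimers thus gave 1 gene that rose, 2 that fell and 1 that did not pass the test.

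Col4a1 (ENSMUSG00000031502, chr8:11198423-11312889) was at 70.1, 71.6 and 68.3 CPM in WT and at 93.3 and 82.4 CPM in KO cells. Col4a2 (ENSMUSG00000031503, chr8:11312805-11449287) was at 36.1, 37.2 and 32.9 CPM in WT and at 47.4 and 46.2 CPM in KO cells. For both genes each KO library exceeded each WT library, and KO replicate 1 was the higher of the KO pair. The log2 changes were 0.33 (SE 0.06, edgeR adjusted p 4.14e-04) for Col4a1 and 0.40 (SE 0.06, edgeR adjusted p 1.04e-04) for Col4a2. Whether they differ from each other was not tested. The rise was 1.25-fold for Col4a1 and 1.32-fold for Col4a2. Reads from the 85 shared bases could not be assigned without a strand, and the strand setting of the authors' counting is not given in the sources used here.

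Nid1, which links laminin gamma chains to type IV collagen (ENSMUSG00000005397, chr13:13437602-13512275), was at 175, 170 and 166 CPM in WT and at 175 and 150 CPM in KO cells. KO replicate 1 matched the highest WT library while KO replicate 2 lay under all of them, and the log2 change was -0.07 (SE 0.06, edgeR adjusted p 0.378). Nid2, its paralogue (ENSMUSG00000021806, chr14:19751257-19811787), was at 279, 254 and 252 CPM in WT and at 284 and 263 CPM in KO cells. The groups overlapped, with a log2 change of 0.06 (SE 0.05, edgeR adjusted p 0.361). The Nid2 body overlaps the coding gene Rtraf in the annotation.

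Hspg2, the heparan sulphate proteoglycan perlecan (ENSMUSG00000028763, chr4:137468751-137570630), was at 290, 259 and 256 CPM in WT and at 257 and 237 CPM in KO cells. KO replicate 1 fell between WT values and KO replicate 2 below them. The log2 change was -0.12 (SE 0.06, edgeR adjusted p 0.101). Without KO replicate 1, which left 1 KO library, the log2 change of Hspg2 was -0.18, and that of Nid1 was also -0.18.

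Sparc, a secreted glycoprotein that binds collagen and is abundant in parietal endoderm (ENSMUSG00000018593, chr11:55394159-55420080), was at 185, 179 and 170 CPM in WT and at 155 and 152 CPM in KO cells. Every KO value was below every WT value, by a modest margin. Sparc fell by 0.22 on the log2 scale (SE 0.04, edgeR adjusted p 0.00179). KO replicate 1 was the highest library for 5 of the 10 genes and KO replicate 2 the lowest for 5, against 29.3% and 18.7% of all genes.

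**Figure D1:**
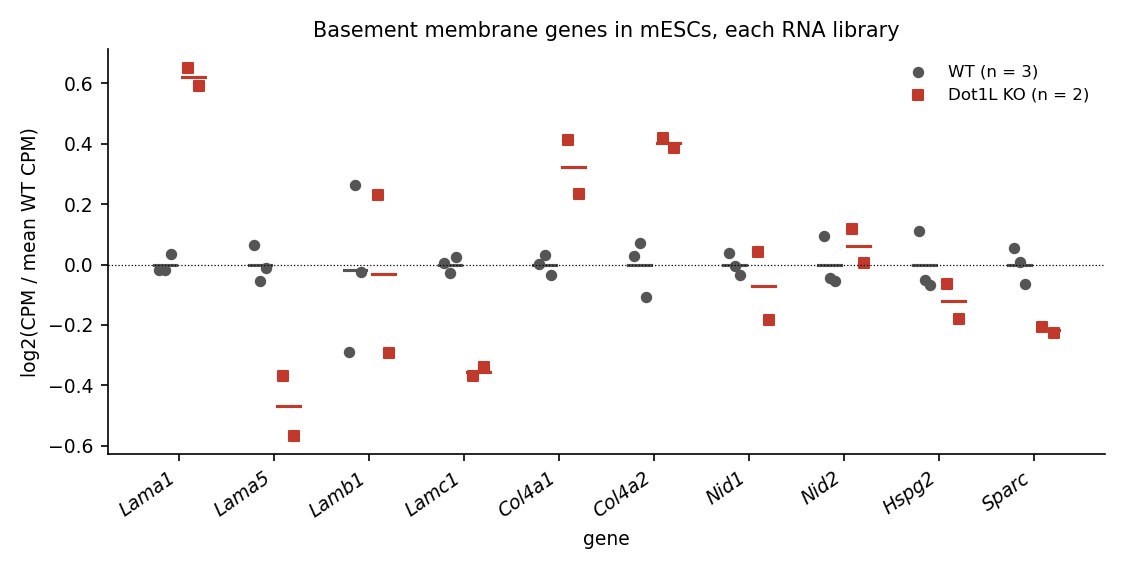
CPM of each of the 10 genes in each mESC library, relative to the gene's WT mean, on a log2 axis; points are libraries (3 WT, 2 KO) and horizontal bars are the means of the log values. Lama1, Col4a1 and Col4a2 have both KO points above all WT points, and Lama5, Lamc1 and Sparc have both below.

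H3K79me2 covered long stretches of 6 of the 10 genes in WT mESCs and was absent from the lists at Lamb1 and Col4a2. A peak was found over the body in both WT lists for 7 of the 10 genes, where 44.4% of 18555 tested genes had one. By single lists it was 8 of 10 in WT list 1 (47.6% of all genes) and 7 of 10 in WT list 2 (46.6%). Lamc1 carried the most: 24 peaks in WT list 1 and 29 in WT list 2, over 66.0 and 65.0 kb, or 58.0% and 57.0% of its body. That put it above 93.4% of all genes by share of the body covered, and above 85.1% of the genes marked in both WT lists. Its highest fold enrichment over background, the authors' own value for a peak, was 10.3 and 8.56.

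Hspg2 was covered over 32.4 and 31.3 kb (31.8% and 30.7% of the body) and had the highest enrichment of the 10 genes in WT list 2, 11.1. Lama5 was covered over 15.5 and 14.5 kb (31.2% and 29.3%). Nid2 was covered over 19.1 and 17.3 kb (31.5% and 28.6%). These 3 lay above 82.9% to 83.6% of all genes, many of which have no peak. Among genes marked in both WT lists they lay above only 61.7% to 63.2%. Nid1, with 16 and 18 separate peaks, was covered over 17.8% and 16.7% of its body, and Sparc over 12.9% and 13.4%. Nid1 lay above 44.1% and Sparc above 36.7% of the marked genes. The 2 lists differed by less than 3 percentage points of the body for each gene.

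At the low end, Lama1 had 2 peaks in WT list 1 and 4 in WT list 2, over 0.502 and 1.72 kb, at most 1.37% of its body. Col4a1 had 1 peak of 230 bp in WT list 1 (−log10 q 1.87) and none in WT list 2. Lamb1 and Col4a2 had 0 peaks in either list. No KO list had an H3K79me2 peak over any of the 10, and 0.108% of all genes had one in either KO list and 0.0108% in both.

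**Figure D2:**
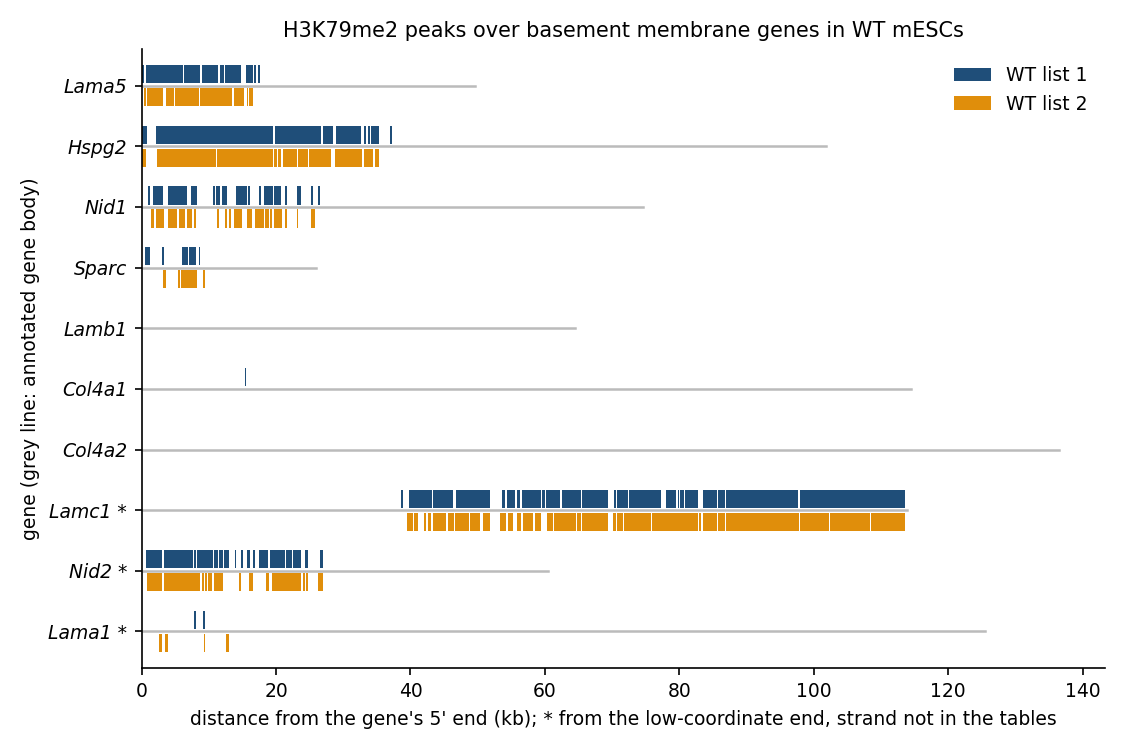
H3K79me2 peaks along the body of each of the 10 genes in WT lists 1 and 2, with distance in kb from the 5′ edge of the annotated body; genes marked * have no strand in the annotation used and are drawn from the low-coordinate end. Lamc1 is covered over most of its length, Hspg2, Lama5, Nid1 and Sparc only towards the start, and Lamb1 and Col4a2 not at all.

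In the 4 genes with a known strand and a peak in both WT lists, the mark lay in the 5′ part of the body. For Lama5, Hspg2, Nid1 and Sparc 100% of the covered bases lay in the first 50% of the body from the 5′ end, in both WT lists. The last covered base lay at 34.5% (Lama5), 35.6% (Hspg2), 35.1% (Nid1) and 35.0% (Sparc) of the body, as means of the lists. The bodies of these 4 genes run from 25.9 kb to 102 kb, with the same reach to within 34.5% to 35.6%. Over 3784 marked genes with bodies of at least 20 kb, the median share in the 5′ part was 99.1% and the median reach 46.5%. Coverage of Hspg2 began 56 and 88 bp from the 5′ edge of its body and that of Lama5 24 and 371 bp from it. For both genes that edge lies upstream of the annotated start that defines the printed windows.

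H3K79me3 was sparse. Only Lamc1 had a peak in both WT lists, where 11.2% of all genes had one, and its peaks lay at different places: chr1:153329888-153330138 in list 1 and chr1:153310808-153311015 in list 2. WT list 1 had peaks over 6 of the 10 genes (26.8% of all genes) and WT list 2 over 2 (11.6%). At the collagen pair, list 1 held a peak at chr8:11312077-11312769 (3.73-fold) and another at chr8:11313095-11313282 (3.50-fold). These flank the shared start region, 36 and 290 bp from the Col4a2 start, and neither was in list 2. No KO list held an H3K79me3 peak over the 10 genes, and 0.975% of all genes had one in either KO list and 0.097% in both.

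The mark and the change in RNA were set side by side, with no test of the difference between classes. The 6 genes covered over at least 10% of the body, as the mean of the lists (Lamc1, Hspg2, Lama5, Nid2, Nid1, Sparc) gave 0 that rose and 3 that fell, with a median log2 change of -0.17. All 5898 genes covered to that degree gave 15.2% higher and 36.0% lower, with a median of -0.07. The 3 genes not marked in both lists (Lamb1, Col4a1, Col4a2) gave 2 that rose and 0 that fell, with a median of 0.33. All 10315 such genes gave 27.2% higher and 12.3% lower, with a median of 0.11. Lamb1, with no peak, was at -0.02 and Nid2, covered over 30.0% of its body, at 0.06, so cover and change did not go together in every gene. Lama1, marked over under 10% of its body, rose, and 23.9% of the 2412 genes of that class were higher and 27.6% lower.

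**Figure D3:**
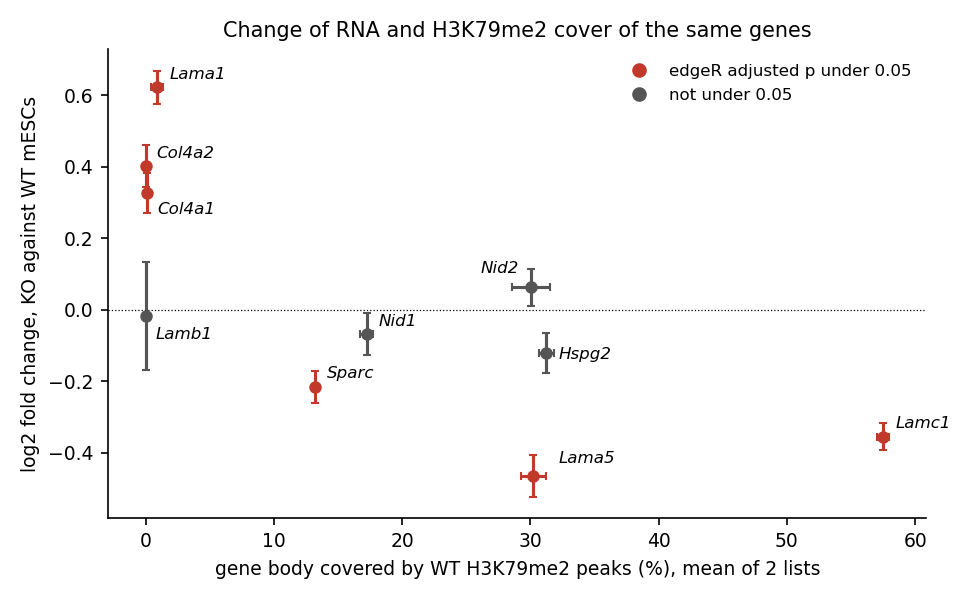
Log2 change of RNA (KO against WT mESCs, vertical, with SE) against the share of the gene body covered by H3K79me2 in WT (horizontal, mean with the values of the 2 lists). The 3 genes that rose, Lama1, Col4a1 and Col4a2, lie at the left with under 2% covered, and Lamc1 lies at the right with 57.5%.

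Of 25 other basement membrane components 13 rose and 3 fell in KO mESCs, with a median log2 change of 0.36. For each list below, the shares over all tested genes are 22.3% higher and 21.6% lower, with a median of 0.00, and no list was tested against them. Among the named genes, Lama3, a laminin alpha chain of epithelia, went from 13.4 to 21.7 CPM (log2 change 0.69). Tinagl1, a matricellular protein, went from 1.68 to 4.61 CPM (1.45). Fras1 and Frem2, which form a complex at the epithelial basement membrane, rose by log2 0.78 and 0.71.

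Col18a1, which codes for the collagen whose end fragment is endostatin, fell from 377 to 240 CPM (log2 change -0.65, edgeR adjusted p 2.78e-08). Smoc1 (-0.35) and agrin, Agrn (-0.14), also fell, and the call for Agrn was lost under several alternatives. The summed level of the 25 components was lower in KO (644 to 705 CPM) than in WT (758 to 788 CPM), although more of them rose. Col18a1 holds a large part of that sum and its fall weighs most in it. CPM is not divided by transcript length, so a sum follows the genes with the most counts. The summed level of the 10 genes was likewise lower, 1571 to 1673 CPM against 1741 to 1828 CPM. Most of that drop was Lamc1, with a mean of 517 CPM in WT and 404 CPM in KO.

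Of 15 receptors 3 rose (Itga3 0.42, Itga6 0.21 and Sdc4 0.69) and 2 fell (Itgb1 -0.16 and Ddr2 -0.60), in neither direction more than the 22.3% and 21.6% of all genes. Their median was 0.00. Itga3 and Itga6 code for laminin-binding integrin alpha chains, Itgb1 for the beta chain they pair with, Sdc4 for a syndecan and Ddr2 for a collagen receptor kinase. Of 16 genes for folding, crosslinking and secretion 8 rose and 1 fell (all genes 22.3% and 21.6%), with a median of 0.23. P4ha2, a prolyl hydroxylase (log2 change 1.03), Plod1 (0.87) and Plod2 (0.69), lysyl hydroxylases, and Loxl2, a lysyl oxidase (0.90), were the 4 named genes that rose, and Crtap (-0.60) fell. Of 12 genes for matrix turnover 9 rose (all genes 22.3%), among them the gelatinases Mmp2 (0.94) and Mmp9 (1.38) and the proteases Adamts9 (0.37) and Bmp1 (0.48). In the same list 2 fell (all genes 21.6%), Timp1 (-0.49), which is X-linked, and Htra1 (-1.15).

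Markers of other cell types that make basement membrane moved too. Of 11 tested primitive endoderm markers 6 rose and 2 fell (all genes 22.3% and 21.6%), and their summed level was 136 to 137 CPM in WT and 144 to 148 CPM in KO. Gata6, the lineage's early transcription factor, went from 0.669 to 3.83 CPM, and Cubn from 1.63 to 14.6 CPM. Pdgfra (log2 change 0.87) and Dab2 (1.44) also rose. Hnf4a fell from 4.21 to 1.75 CPM (-1.27, edgeR adjusted p 9.99e-05), and Lrp2, which holds most of the summed level, from 111 to 93.2 CPM (-0.25). Foxa2, Ttr and Afp did not pass the filter on low counts, and 0 to 2 of the 14 markers were at 0 in a library. Gata4 was at 5.48 CPM in WT and 4.99 CPM in KO (edgeR adjusted p 0.472).

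Of 7 parietal endoderm markers 5 rose and 0 fell (all genes 22.3% and 21.6%), and their summed level was 32.9 to 35.6 CPM in WT and 47.4 to 56.1 CPM in KO. Plat (0.37), Pth1r (0.98), Krt19 (1.07) and Srgn (1.22) were among them, and the call for Plat was lost without KO replicate 1 (0.25, edgeR adjusted p 0.119). Of 16 tested fibroblast and feeder markers 8 rose and 0 fell (all genes 22.3% and 21.6%), with sums of 303 to 374 CPM in WT and 407 to 482 CPM in KO and no overlap. Col1a1 (0.62), Pdgfrb (0.74), Tagln (1.19) and Acta2 (1.10) rose, and Col3a1 was at -0.14 (edgeR adjusted p 0.385). The part of other cell types in the changes of the 10 genes was not tested. Of 7 pluripotency markers 3 fell, Nanog from 496 to 244 CPM, Pou5f1 (-0.21) and Zfp42 (-0.46), and 1 rose, Tfcp2l1 (0.46).

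**Figure D4:**
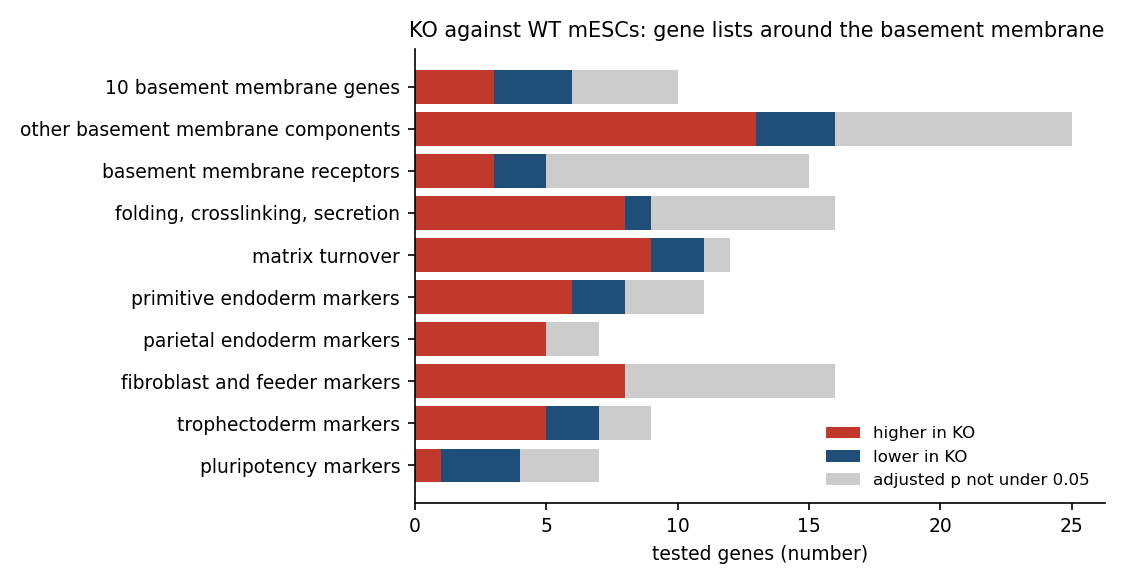
Number of genes called higher and lower in KO against WT mESCs (edgeR adjusted p under 0.05) in each of 10 gene lists, as stacked bars of tested genes with those not called in grey. The 10 basement membrane genes have 3 in each direction, and the 25 other components have 13 higher and 3 lower.

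In 8-cell embryos 0 of the 10 genes were called between SGC0946 and DMSO, and 0 of 14351 genes were called in all. At an unadjusted p under 0.05, 1 of the 10 was found, Lama5, where 8.15% of all genes were. Groups did not overlap for Lama5 and Sparc, both higher with SGC0946, where 39.2% of all genes did not overlap (20.1% higher and 19.2% lower). With 2 pools per group the replicates spread widely. The cumulus and granulosa markers summed to 0.548 to 1.72 CPM, and the fibroblast markers to 9.84 to 22.2 CPM with DMSO and 6.60 to 8.70 CPM with SGC0946.

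Lama5 was at 124 and 93.9 CPM with DMSO and at 190 and 127 CPM with SGC0946. The lower SGC0946 pool was only slightly above the higher DMSO pool. The log2 difference was 0.54 (SE 0.20, edgeR p 0.0171, adjusted p 0.469), and without SGC0946 replicate 2 it was 0.81. Sparc had few counts and was at 0.516 and 1.81 CPM with DMSO and 2.67 and 2.95 CPM with SGC0946 (14, 48, 70 and 97 counts). Its log2 difference of 1.27 had an SE of 0.97 (edgeR adjusted p 0.807).

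Lama1 was at 2.69 and 5.77 CPM with DMSO and at 4.69 and 9.58 CPM with SGC0946, and the pools interleaved (log2 difference 0.76, SE 0.56, edgeR adjusted p 0.802). Hspg2 was at 17.3 and 4.30 CPM with DMSO and at 24.5 and 13.3 CPM with SGC0946. The lower SGC0946 pool lay between the DMSO pools (log2 difference 0.80, SE 0.51, edgeR adjusted p 0.762).

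Col4a1 was at 27.7 and 18.4 CPM with DMSO and at 36.6 and 16.8 CPM with SGC0946, and Col4a2 was at 13.7 and 13.2 CPM and at 22.0 and 8.76 CPM. Both collagen genes were highest in SGC0946 replicate 1 and lowest in SGC0946 replicate 2, so the SGC0946 pools set both ends of the range. Lamb1 (75.1 and 72.7 against 90.1 and 59.3 CPM) showed the same order. Lamc1 (52.0 and 30.6 against 43.2 and 33.6 CPM), Nid1 (120 and 113 against 98.4 and 130 CPM) and Nid2 (15.1 and 13.5 against 17.4 and 11.1 CPM) also overlapped between groups. For these 6 genes the log2 difference lay between -0.11 (Lamc1) and 0.21 (Col4a1). SGC0946 replicate 1 was the highest library for 6 of the 10 genes, against 30.2% of all genes.

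**Figure D5:**
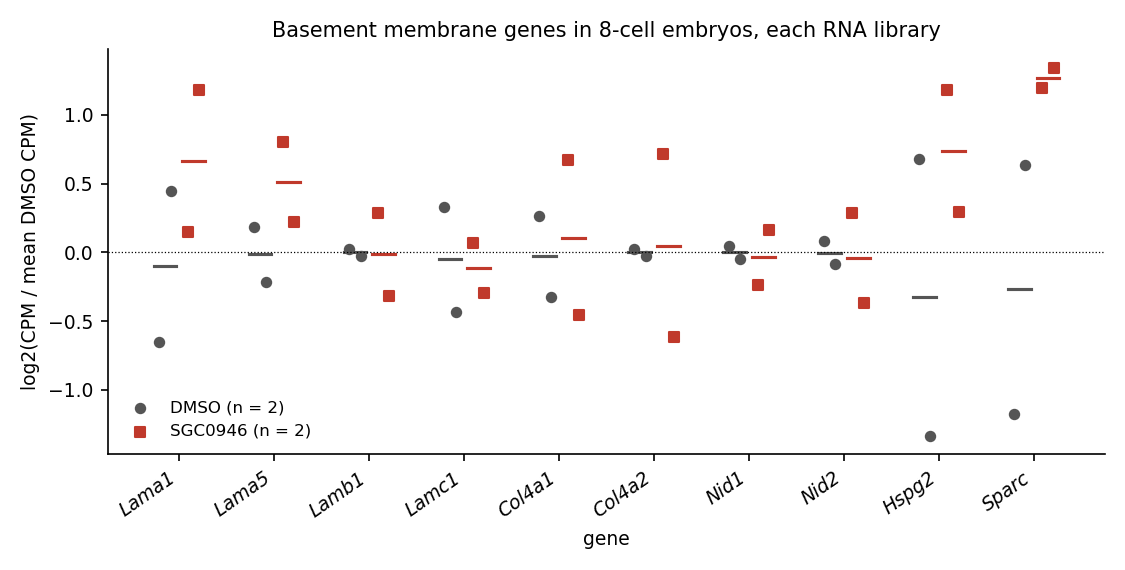
CPM of each of the 10 genes in each embryo pool, relative to the gene's DMSO mean, on a log2 axis; points are pools (2 DMSO, 2 SGC0946) and horizontal bars are the means of the log values. Only Lama5 and Sparc have both SGC0946 points above both DMSO points, and the spread within a group is wide for Hspg2 and Sparc.

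The surrounding lists gave 0 calls in embryos as well. Sdc4 went from 55.5 and 48.3 CPM to 139 and 67.4 CPM (log2 difference 0.99, edgeR adjusted p 0.332). Ddr1, a collagen receptor kinase, went from 92.0 and 88.7 CPM to 56.0 and 67.4 CPM (-0.55, edgeR adjusted p 0.407). Lama4 (1.00), Dab2 (0.43) and Gata6 (-0.21) had groups that did not overlap and edgeR adjusted p-values of 0.709 to 0.741.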

How the data were processed

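The authors deposited estimated counts (expected counts) per gene for the mESC RNA, whole read counts per gene for the embryo RNA, and a peak list per ChIP library. Per the submitters' processing notes, kallisto, STAR, HTSeq, Bowtie2, MACS2 and mm10 were used; versions, annotation, strand setting and handling of molecular identifiers are not given in the sources used here. Each deposited peak carries the authors' fold enrichment (a ratio), −log10 p, −log10 q and a score.

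Estimated counts were rounded, low genes were removed with filterByExpr, and edgeR 4.0.16 (R 4.3.3) was fitted with TMM scaling and a quasi-likelihood test over all genes of each table separately, with Benjamini-Hochberg adjustment. Calls were made at an adjusted p under 0.05. On simulated data the mESC fit called most of the genes made to change and the embryo fit few of them. The spread between simulated replicates was set by hand, much wider for embryos, and was not estimated from these data. That contrast therefore does not measure the power of the fits to the real libraries. Totals above set the depth, and intervals from counts would cover counting error only. Replicates differed by more than sampling noise (chi-square per degree of freedom 2.36 to 36.7), so each was counted.

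A peak counted where it overlapped a RefSeq GRCm38.p6 gene body by 1 bp. Lama1, Lamc1 and Nid2 have no strand or promoter in the tables used. Alternatives were DESeq2 1.42.0, limma-voom (limma 3.58.1), other scalings and filters, stricter peaks and leaving out each replicate. Replicate numbers were not treated as pairs. Input libraries were not used.

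The members and lists were chosen with earlier results of these data known. In mESCs up to 4 called genes per list and direction are named, by lowest p, with at least 1 CPM and groups that do not overlap; in embryos up to 2 per list, of which 1 gene is not reported here.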

Additional observations from a re-analysis of the deposited data

Results flagged for a closer look

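Lama5 and Sparc each moved in opposite directions in the mESC and the embryo comparison, with groups that did not overlap in either. Such separation was common: in mESCs 62.5% of all tested genes did not overlap (31.8% higher and 30.7% lower). In embryos it was 39.2% (20.1% higher and 19.2% lower). The share of all genes with opposite directions was not computed, so whether the pattern is unusual was not tested. The log2 change of Lama5 was -0.46 in KO against WT mESCs and 0.54 in SGC0946 against DMSO embryos. The log2 change of Sparc was -0.22 in KO against WT mESCs and 1.27 in SGC0946 against DMSO embryos, where it rests on 14 to 97 counts. The difference between the comparisons was not tested, and neither embryo value passed the adjusted threshold.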

How the results depend on the processing

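The 6 genes called in mESCs were also called, in the same direction, under each of the 14 alternatives. Some alternatives added calls: Hspg2 with no filter (-0.13, edgeR adjusted p 0.0187), with the block and without KO replicate 1, and Nid1 without KO replicate 1. With 1 replicate left out in turn, the count of lower genes was 3 to 5, and in embryos the called count and its higher part were 0 to 1. The log2 change of Lamb1 in mESCs turned to 0.050 with upper-quartile scaling and ran from -0.30 to 0.22 with a replicate left out, and that of Nid1 from -0.18 to 0.038. With the replicate block Hspg2 was called at -0.15 (edgeR adjusted p 0.0164 with replicates 1 and 2, 0.0118 with all 5 libraries), Agrn lost its call at -0.12 with replicates 1 and 2, and in embryos Lamb1 turned to -0.014. Whether same-numbered samples belong together is not known from the sources used here. Over all tested genes, deviations of same-numbered samples correlated at -0.0105 (mESCs) and 0.0524 (embryos). With 2 shared numbers in each, that value cannot decide whether some genes share a batch. Upper-quartile scaling shifted the median of all genes by 0.07 and made 63.5% of calls higher, against 50.8%.

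In embryos Nid2 turned to 0.0013 with upper-quartile scaling and 0.0024 with at least 10 counts in every library, and Lamb1 to -0.036 and Col4a2 to -0.014 with limma-voom. With a pool left out, the log2 difference ran from -0.31 to 0.29 for Lamb1, -0.44 to 0.32 for Lamc1, -0.45 to 0.67 for Col4a1, -0.61 to 0.71 for Col4a2, -0.24 to 0.17 for Nid1 and -0.36 to 0.29 for Nid2. The cause was not tested. The count of all genes called in embryos, 0 in edgeR, was 126 with DESeq2, 55 with limma-voom, 171 with the replicate block, 111 with no filter, 23 with at least 10 counts and 4 to 365 with a pool left out; at an unadjusted p under 0.05 it was 1169. Sdc4 was called in embryos with DESeq2, with no filter, with the block and without SGC0946 replicate 2. The count of genes with H3K79me3 in both WT lists, 1, was 0 at a −log10 q of at least 5, 0 at 10% of the body, 6 without WT replicate 2 and 2 without WT replicate 1. With 2 embryo pools per group, the SE of 0.51 for Hspg2 and 0.97 for Sparc limits what could be detected.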

Other observations

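Trophectoderm markers, which mark the other early epithelium that lies on a basement membrane, gave 5 higher and 2 lower of 9 in KO mESCs, where 22.3% and 21.6% of all genes were. Eomes rose (log2 change 0.82) and Hand1 went from 0.834 to 1.99 CPM, while Gata3 fell from 8.57 to 3.96 CPM. Krt8 (log2 change 0.60) and Krt18 (0.62) also rose, and Tfap2c (-0.37) fell. Of 9 tested cumulus and granulosa markers 2 rose, Cyp11a1 (0.56) and Ptgs2 (0.55), and 0 fell. The summed level of the trophectoderm markers was 138 to 145 CPM in WT and 136 to 139 CPM in KO, so the groups overlapped in the sum. In the embryos the summed pluripotency markers were 1628 to 1753 CPM with DMSO and 1055 to 1251 CPM with SGC0946. By edgeR 0 of 7 were called, and 3 had an unadjusted p under 0.05, where 8.15% of all genes had. These were Pou5f1 (log2 difference -0.49), Esrrb (-0.64) and Tfcp2l1 (-0.89), which hold most of the sum. Among X-linked basement membrane genes Col4a5 was higher in KO mESCs (log2 change 0.53, edgeR adjusted p 0.00214). Col4a6, also X-linked, was not called (0.51, edgeR adjusted p 0.232), and its groups overlapped. Of all tested X-linked genes 4.77% were higher and 60.5% lower.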
